A study of Mus musculus with 24 samples.

Results

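The cytosolic ribosomal protein genes encode the proteins of the small (Rps) and large (Rpl) subunits of the ribosome that translates nuclear messenger RNA. They were taken from the count matrix by symbol: every row that begins with Rpl or Rps followed by a digit, together with Rplp0, Rplp1, Rplp2 and Rpsa. The 10 kinases of the Rps6k family and the 6 rows with -ps in their name were dropped, which left 89 of the 24447 genes. Of these, 31 encode small subunit proteins, 43 large subunit proteins and 3 the proteins of the ribosomal stalk, and these 77 are called the core members below. A further 11 are paralogs (a second gene for the same kind of protein, such as Rpl22l1 beside Rpl22), and Rps19bp1 encodes a protein that binds Rps19 and is not itself a ribosomal protein. All cells with at least 10000 unique molecular identifiers (UMIs, tags that let each captured transcript be counted once) were used, which were 1382 of 1735 cells.

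Each ribosome holds 1 copy of nearly every core protein, and the genes for them are transcribed in concert in all cells. Their messenger RNAs begin with a run of pyrimidines (C or T), the terminal oligopyrimidine tract, through which their translation is raised when growth signalling through mTOR is active and held back when it is not. Resting lymphocytes keep these messenger RNAs in reserve and enlarge their ribosome pool on activation.

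The cells were NK1.1+CD3e+ cells, the surface phenotype of mouse natural killer T (NKT) cells, sorted from the livers of untreated young adult C57BL/6 mice and picked singly by hand. They came from wild type (WT) mice, from Jα18-deficient mice, which lack a T cell receptor segment needed for type I NKT cells, and from CD1d-deficient mice, which lack the lipid-presenting molecule recognised by NKT cells of either type. The CD1d2 gene is intact in the CD1d-deficient mice, and the original Jα18-deficient line is known to lack several other Jα segments, which narrows its receptor repertoire. The study's methods do not say whether that line was used. The labels list 8 libraries for each genotype, but a cell's name gives only its genotype, so each genotype was 1 pool without replicates. The WT pool held 523 cells and 33641489 UMIs, the Jα18-deficient pool 632 cells and 59920798 UMIs, and the CD1d-deficient pool 227 cells and 13628142 UMIs.

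All 8 T cell and NK1.1 marker genes examined were detected in each pool. Cd3d, a subunit of the CD3 complex, had at least 1 UMI in 99.8% (WT), 99.8% (Jα18-deficient) and 99.6% (CD1d-deficient) of cells. Klrb1c, which encodes NK1.1, had a UMI in 95.8%, 97.6% and 96.0% of them. Cd1d1 stood at 24.8 CPM (counts scaled to 1000000 per sum) in the WT pool and 15.5 CPM in the Jα18-deficient pool, and had 0 UMIs in the CD1d-deficient pool. The summed level of 5 genes of conventional NK cells (Eomes, Ncr1, Klrk1, Tyrobp and Fcer1g) was 1370 CPM in WT, 3288 CPM in Jα18-deficient and 6503 CPM in CD1d-deficient cells. The 11 myeloid genes summed to 88.6, 23.2 and 630.2 CPM in the same order, of which Lyz2 made up 76.3, 14.2 and 600.0 CPM, with S100a9 and Marco at 0 in every pool. Hepatocyte genes summed to 25.9 to 38.2 CPM, B cell genes to 6.48 to 11.3 CPM, endothelial genes to 6.24 to 14.8 CPM and erythroid genes to at most 0.238 CPM. The part of these levels in the differences between pools given below was not tested.

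The windows around the transcription starts show runs of pyrimidines near the start. They are 30 bases of the sense strand from RefSeq (build GRCm38.p6), and the capitals mark the longest run of C or T within 40 bases of the annotated start. A run could lie before or after that start, and began 16 bases before it in Rpl13 and 11 bases after it in Rplp0. Whether a run is the tract with which the messenger RNA begins was not tested. The first 4 belong to the members with the highest fold changes in S1pr1+ cells (below), of which Rplp0 has a run of only 7 bases, and Rpl35 and Rpl13 were called in that split in thinned cells.
Rpl28 (chr7:4792952-4792981, plus strand): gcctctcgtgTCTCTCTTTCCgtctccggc
Rpl7a (chr2:26910788-26910817, plus strand): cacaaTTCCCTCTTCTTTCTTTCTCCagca
Rpl15 (chr14:18270968-18270997, minus strand): gagaaagCCTTCTTCCTTTCCTCTggcggc
Rplp0 (chr5:115559466-115559495, plus strand): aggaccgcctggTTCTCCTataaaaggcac
Rpl35 (chr2:39005115-39005144, minus strand): gccccgCCCTTTCCTCTTTCTCTCgaacca
Rpl13 (chr8:123102324-123102353, plus strand): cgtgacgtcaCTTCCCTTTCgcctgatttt

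A RefSeq promoter window (250 bases before to 50 after the start) was found for 68 of the 89 members. A run of at least 8 pyrimidines lay within 40 bases of the start in 73.5% of these members and in 32.6% of all 27025 genes with a window. The median longest run was 10 bases in the members and 6 in all genes. The motif CCGGAAG, searched on both strands, was in 38.2% of the members and 9.93% of all genes, AAGATGGC was in 8.82% and 3.19%, and TATAAA was in 11.8% and 15.7%. A match is a description of the letters in the window and no measure of use of the site.

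Not every core member gave counts. Of the 77, Rpl26 and Rpl30 (both large subunit) had 0 UMIs in every pool, Rpl34 had 19 UMIs and Rps27 had 13. The other 73 core members each had over 40000 UMIs in the 1382 cells. Ribosomal protein genes have many processed copies in the mouse genome, so the last 300 coding bases of each core member with an annotated transcript were aligned to NCBIM37, the build that corresponds to the authors' mm9. Of 76 members searched, 71 had at least 1 other locus with at least 95% identity over at least 90% of the length, and 23 had an identical one. Loci at 95% identity or more numbered up to 54, for Rpl21, where none was identical. Rpl26 had 7, Rpl30 had 13, Rpl34 had 5 and Rps27 had 5. Counts of members with such copies are uncertain to the extent that reads were shared between loci, and the part of copies in the missing counts was not tested.

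The members held a large and variable share of each cell's UMIs. They made up 18.9% (WT), 16.5% (Jα18-deficient) and 13.6% (CD1d-deficient) of all UMIs. The 95% binomial (exact Clopper-Pearson) intervals, which cover counting error only, ran from 18.84% to 18.87%, from 16.48% to 16.50% and from 13.62% to 13.66%. Small subunit genes accounted for 7.29%, 6.30% and 5.24%, and large subunit and stalk genes together for 11.4%, 10.02% and 8.23%, in the same order. Over single cells the lowest, median and highest shares were 6.12%, 19.4% and 31.9% in WT, 5.69%, 17.4% and 47.2% in Jα18-deficient, and 5.19%, 13.6% and 28.9% in CD1d-deficient cells. The ranges of the pools therefore overlapped over most of their length, while the order of the medians followed that of the sums.

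**Figure D1:**
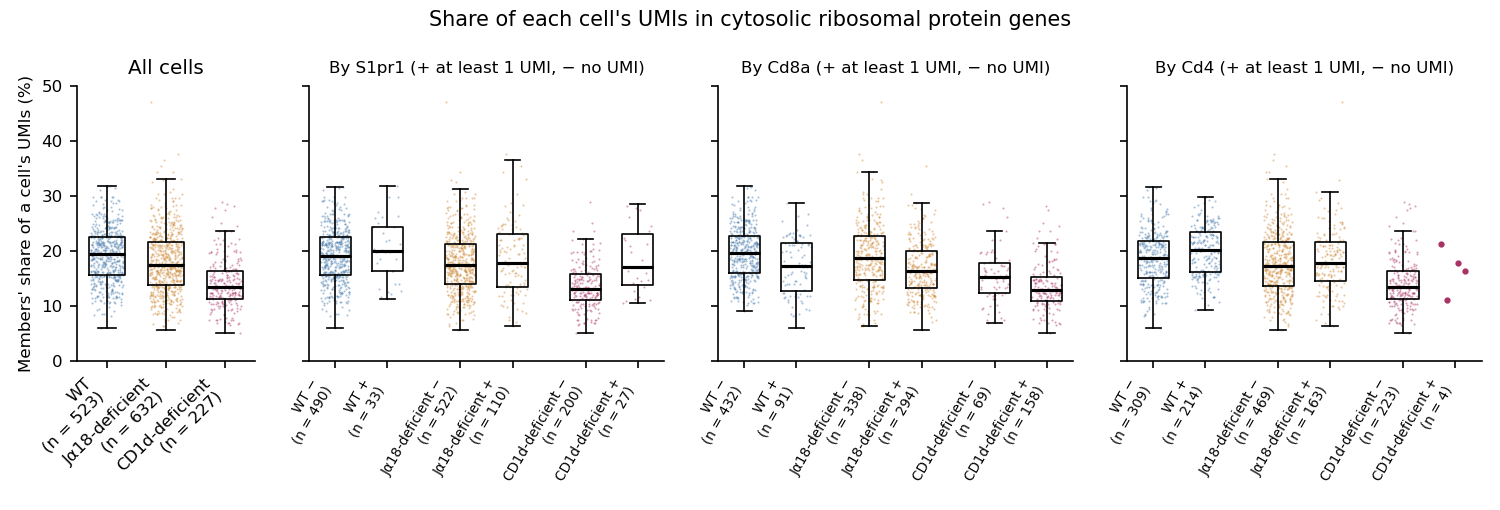
Share of each cell's UMIs (y axis, %) that fell in the 89 members, for all cells of each genotype pool and for cells with (+) or without (−) a UMI of S1pr1, Cd8a or Cd4; points are cells, boxes show the quartiles with the median in black and whiskers reach to 1.5 times the box height. The medians are 19.4% in WT, 17.4% in Jα18-deficient and 13.6% in CD1d-deficient cells, and Cd8a+ cells have the lower median in all 3 pools.

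With every cell thinned at random to 10000 UMIs, the shares were 19.2%, 18.0% and 14.2%. At that depth the SD over cells was 4.82 percentage points in WT, 5.62 in Jα18-deficient and 4.52 in CD1d-deficient cells, where counting error alone gives 0.394, 0.384 and 0.349. A median of 75 members was detected per thinned cell in each pool. The shares of small subunit genes and of large subunit genes, stalk genes included, varied together over thinned cells. Spearman's rho was 0.87 in 523 WT, 0.85 in 632 Jα18-deficient and 0.87 in 227 CD1d-deficient cells, which is a description, since both shares come from the same library. The share was lower in deeper Jα18-deficient cells (rho −0.32 with total UMIs over 632 cells) and hardly varied with depth in the others (rho −0.06 in WT and −0.05 in CD1d-deficient cells). In cells without a UMI of S1pr1, Cd8a or Cd4 the shares were 18.6% (235 WT cells), 17.5% (206 Jα18-deficient cells) and 14.3% (59 CD1d-deficient cells), in the same order of the pools. The median depth of these cells was 37616, 36068 and 24272 UMIs. A cell without a UMI of a gene may still express it, and the part of undetected expression in this order was not tested. With 1 pool per genotype there was no test between genotypes.

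Gene by gene, core members stood lower in the CD1d-deficient pool than in the WT pool almost throughout. Of the 80 members with at least 100 UMIs in this pair, 76 had a log2 ratio of CPM below 0, and the median was −0.46, against 0.00 over the 9406 genes that met the same minimum. The CD1d-deficient pool was lower by over 1.5-fold in 23 members, where 22.8% of all genes were, and higher in 2, where 22.7% of all genes were. With library sizes taken from genes that are not members 36 were lower, where 26.1% of all genes were. In cells with none of S1pr1, Cd8a and Cd4 11 of 79 were lower, a smaller share than the 34.2% of all genes. The 23 comprised 15 large subunit genes, 6 small subunit genes and 2 paralogs, and all 3 stalk genes lay within 1.5-fold. The core members therefore differed from all genes in direction (72 of 73 below 0, where 49.9% of all genes were above 0) more than in the share past 1.5-fold.

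Rpl17, a protein at the exit of the peptide tunnel, stood at 6215 CPM in WT, 5554 CPM in Jα18-deficient and 2712 CPM in CD1d-deficient cells, a ratio of 0.436 of CD1d-deficient to WT. Rpl36a stood at 1379, 984.2 and 678.4 CPM, with a ratio of 0.492 for the same pair. Rpl27 stood at 2310, 1650 and 1247 CPM and Rpl22, a large subunit protein that binds RNA and is needed for αβ T cell development, at 838.0, 714.8 and 474.3 CPM. These 4 were named for the lowest ratios of CD1d-deficient to WT among members with at least 1000 UMIs, so their place below WT follows from that choice. In all 4 the Jα18-deficient pool lay between the other pools, as in the summed share. Rpsa, the laminin receptor homologue of the small subunit, was nearly level at 1726, 1652 and 1797 CPM. Of the stalk genes, which form the flexible arm that recruits translation factors, Rplp0 stood at 3498, 3238 and 2475 CPM, Rplp1 at 3698, 3759 and 3467 CPM and Rplp2 at 1422, 1326 and 1152 CPM.

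Between the Jα18-deficient and WT pools the members differed less. Of 81 members, 67 had a log2 ratio below 0, and the median was −0.18, against 0.14 over 10240 genes, of which 58.8% were above 0. The members were past 1.5-fold lower in 1 case (Rpl22l1) and higher in 2 (Rps4l and Rpl39l), where 14.0% of all genes were lower and 25.5% higher. Among core members the lowest ratios were 0.712 for Rps24 (3197 against 4491 CPM), 0.714 for Rpl36a and 0.715 for Rpl27. With edgeR's TMM factors in place of library totals the median of all genes moved from 0.14 to 0.02 and that of the members from −0.18 to −0.30, and 6 members were then past 1.5-fold lower, where 17.2% of all genes were.

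The CD1d-deficient pool was also below the Jα18-deficient pool, in 72 of 81 members, with a median of −0.23 against −0.14 over 10008 genes, of which 42.3% were above 0. It was past 1.5-fold lower in 11 members and higher in 0, where 29.4% of all genes were lower and 18.3% higher. Rpl17 had the lowest ratio among core members (0.488), followed by Rpl5 (0.570), which carries 5S ribosomal RNA with Rpl11 and restrains Mdm2, and Rpl28 (0.586). Rpl7 stood at 1752 CPM in WT, 1269 CPM in Jα18-deficient and 1610 CPM in CD1d-deficient cells and so did not follow the order of the sum. The 3 comparisons share pools and are not independent of each other. In cells without any of the 3 receptor genes the medians of the members were −0.12 (Jα18-deficient over WT), −0.36 (CD1d-deficient over WT) and −0.24 (CD1d-deficient over Jα18-deficient), against 0.04, −0.16 and −0.20 over all genes in the same cells. The members thus lay nearest to all genes in the last pair.

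**Figure D2:**
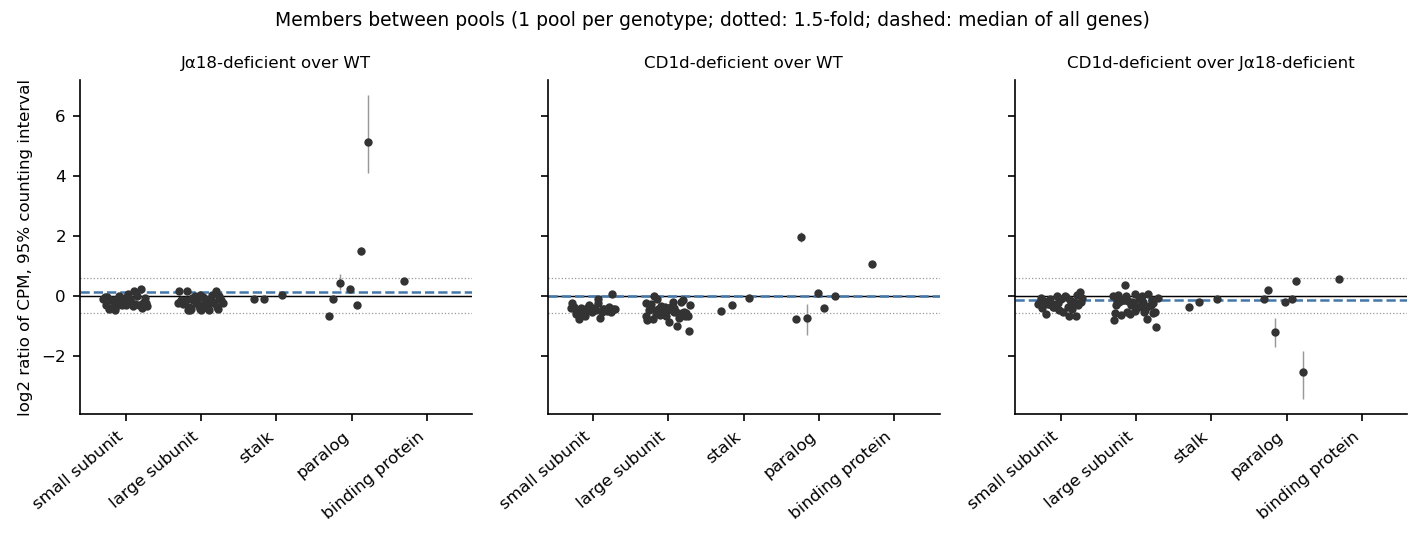
log2 ratio of CPM (y axis) of each member with at least 100 UMIs between 2 pools, by group of members (x axis); bars are 95% counting intervals, dotted lines mark 1.5-fold and the dashed line the median of all genes. The core members lie mostly below 0, by a median of 0.48 for CD1d-deficient over WT, and paralogs spread most widely, up to 5.11 for Rpl39l, which rests on 6 UMIs in WT.

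Within the pools, cells were split by whether they had a UMI of S1pr1, Cd8a or Cd4. S1pr1 encodes the sphingosine 1-phosphate receptor that lets lymphocytes leave tissue, Cd8a a chain of the CD8 co-receptor and Cd4 the CD4 co-receptor. UMIs were summed per pool and class, and the classes were compared over pools with edgeR's quasi-likelihood test with a term for the pool and the Benjamini-Hochberg adjustment over all genes tested. Calls needed both an adjusted p under 0.05 and a change of over 0.25 on the natural log scale. Cells of different pools stand in as replicates here, and positive cells were deeper than negative ones in each split. Mean differences in share between classes are given ± SD over pools, with an exact sign-flip permutation test, whose smallest possible p is 0.25 for 3 pools and 0.5 for 2.

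S1pr1+ cells had the higher share of ribosomal protein UMIs in all 3 pools, but by very different amounts. The share was 19.0% in 33 S1pr1+ against 18.8% in 490 S1pr1- WT cells. It was 17.2% in 110 against 16.2% in 522 Jα18-deficient cells, and 17.7% in 27 against 13.1% in 200 CD1d-deficient cells. The mean difference was 1.93 ± 2.37 percentage points (SD, n = 3 pools, exact two-sided p = 0.25). Without the CD1d-deficient pool it was 0.588 points. S1pr1+ cells had a median depth of 62978, 86347 and 52342 UMIs in the 3 pools, against 50554, 51206 and 35810 in S1pr1- cells. Set against the cells with none of the 3 genes in place of all S1pr1- cells, the difference was 0.425 points in WT, −0.280 in Jα18-deficient and 3.41 in CD1d-deficient cells.

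No member was called between S1pr1+ and S1pr1- cells, although nearly all had positive fold changes. edgeR called 0 of the 81 members tested (background 0.0374%, 4 of 10696 genes), DESeq2 also called 0, and 37 members had an unadjusted p under 0.05 in edgeR. All 37 were higher in S1pr1+ cells, where 1.84% of all genes were at that p. The count in either direction was 19 without the CD1d-deficient pool and 19 with library sizes from genes that are not members. It was 19 against cells with none of the 3 genes and 4 with no pool term. The log2 fold change was above 0 in 75 of 81 members and in 73 of 73 core members, against 39.6% of all genes. The median was 0.29 over the members and −0.18 over all genes, with 0.31 in small subunit, 0.31 in large subunit and 0.22 in stalk genes. CPM was higher in S1pr1+ cells of every pool in 33 core members and lower in every pool in 0, where 7.09% and 22.4% of all genes were. Without the CD1d-deficient pool the median over the members was 0.12 and that over all genes −0.14.

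Rplp0, the anchor of the stalk, stood at 4092, 3638 and 3631 CPM in S1pr1+ cells of the WT, Jα18-deficient and CD1d-deficient pools, and at 3457, 3100 and 2313 CPM in S1pr1- cells. The 3 positive values all lay above the 3 negative ones, and the log2 fold change was 0.49 (SE 0.13, edgeR adjusted p = 0.824). Rpl15 stood at 2259, 2176 and 2287 CPM in S1pr1+ and 2044, 1731 and 1532 CPM in S1pr1- cells, also without overlap (log2 fold change 0.46, SE 0.14, edgeR adjusted p = 0.848). Rpl28, which has no counterpart in yeast, stood at 1363, 1311 and 1163 CPM against 1143, 1137 and 626.5 CPM, with the highest log2 fold change of the members (0.56, SE 0.17, edgeR adjusted p = 0.848). Its lowest positive value, in the CD1d-deficient pool, was only just above its highest negative one, in WT. Rpl7a stood at 959.9, 687.6 and 657.2 CPM against 766.7, 528.2 and 458.1 CPM, and here the classes overlapped between pools. Rpl4, Rpl35, Rps12 and Rps3a1 were the other members whose classes did not overlap, which made 7 of 81, where 2.71% of all genes were above without overlap. Of the 3 stalk genes only Rplp0 was higher in S1pr1+ cells of every pool, as 33 of the 73 core members were. All 3 had log2 fold changes above 0. S1pr1+ cells had 3678, 3668 and 4388 CPM of Rplp1 against 3699, 3790 and 3337 CPM, so its WT and Jα18-deficient pools went the other way.

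With cells thinned to 10000 UMIs before they were split, 3 members were called by edgeR with the Benjamini-Hochberg adjustment, where 0.457% of all genes were (37 of 8102). All 3 were higher in S1pr1+ cells. They were Rplp0 (log2 fold change 0.61, adjusted p = 0.00436), Rpl35 (0.56, adjusted p = 0.0499) and Rpl13 (0.46, adjusted p = 0.0499). Thinning left 22 WT, 50 Jα18-deficient and 18 CD1d-deficient cells S1pr1+, and their shares were 20.3%, 20.6% and 20.1%, against 19.2%, 17.8% and 13.7% in S1pr1- cells. The S1pr1+ shares of the pools thus lay close together, while the S1pr1- shares kept the order of the pools. In the classes made without thinning, the summed level of the NK cell genes was 929.8, 2533 and 3704 CPM in S1pr1+ cells. It was 1400, 3548 and 6897 CPM in S1pr1- cells. Its part in the difference was not tested.

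**Figure D3:**
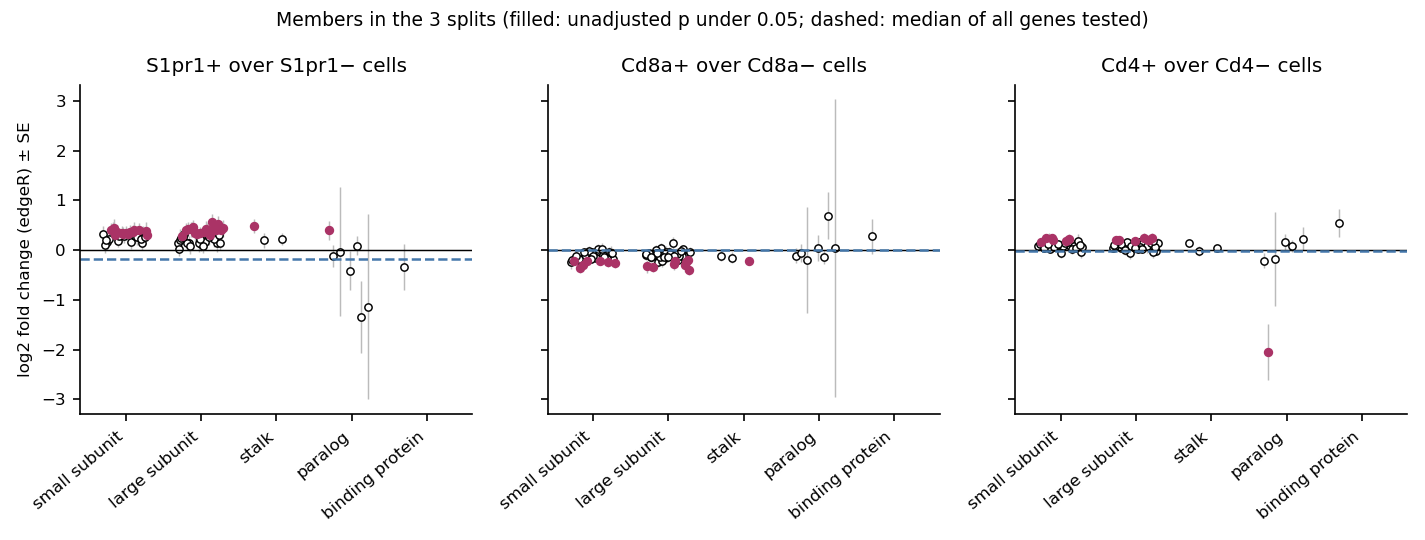
log2 fold change (edgeR, y axis, ± SE) of each tested member between cells with and without a UMI of S1pr1, Cd8a or Cd4, by group of members (x axis); filled points had an unadjusted p under 0.05 and the dashed line is the median of all genes tested. All 73 core members lie above 0 for S1pr1, 68 of 73 below 0 for Cd8a and 67 of 73 above 0 for Cd4, and none passed the adjusted test.

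Cd8a+ cells had the lower share in all 3 pools. The share was 17.5% in 91 Cd8a+ against 19.2% in 432 Cd8a- WT cells. It was 16.1% in 294 against 17.2% in 338 Jα18-deficient cells, and 13.3% in 158 against 15.2% in 69 CD1d-deficient cells. The mean difference was −1.56 ± 0.395 points (SD, n = 3 pools, exact two-sided p = 0.25), and the medians over cells differed by −2.49, −2.38 and −2.38 points. Against cells with none of the 3 genes, cells with Cd8a alone had 16.2%, 15.3% and 12.7%, differences of −2.41, −2.23 and −1.54 points. In thinned cells the share was 14.9% in 40 Cd8a+ against 19.6% in 483 Cd8a- WT cells, 16.5% in 125 against 18.4% in 507 Jα18-deficient cells and 13.3% in 111 against 15.1% in 116 CD1d-deficient cells. The thinned differences were −4.71, −1.91 and −1.83 points, so the WT pool then stood apart from the others. Cd8a+ cells had a median depth of 58885, 86657 and 49400 UMIs, against 48313, 41947 and 25279 in Cd8a- cells. The NK cell genes summed to 2987, 3753 and 7023 CPM in Cd8a+ cells and to 984.6, 2550 and 4361 CPM in Cd8a- cells, and their part in the difference was not tested.

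edgeR called 0 of 81 members (background 0.0544%, 6 of 11032 genes), DESeq2 called 0, and 16 members had an unadjusted p under 0.05 in edgeR. All 16 were lower in Cd8a+ cells, where 2.13% of all genes were at that p. The count in either direction was 26 with library sizes from genes that are not members, 42 in thinned cells and 5 in DESeq2. The 42 include Rps4l, which was higher in Cd8a+ cells. The count was 9 without the Jα18-deficient pool, 5 without the CD1d-deficient pool and 0 with no pool term. The log2 fold change was below 0 in 72 members, with a median of −0.12 over the members and 0.00 over all genes. CPM was lower in Cd8a+ cells of every pool in 48 core members, where 11.9% of all genes were, and higher in every pool in 1, where 12.6% were. The 48 were 20 small subunit genes, 27 large subunit genes and Rplp1.

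Rpl17 stood at 5558, 4634 and 2547 CPM in Cd8a+ cells of the WT, Jα18-deficient and CD1d-deficient pools and at 6372, 7012 and 3389 CPM in Cd8a- cells. It was lower within each pool, while the pools overlapped, and its log2 fold change was −0.40 (SE 0.09, edgeR adjusted p = 0.275). It was the member nearest to a call: without the WT pool it was −0.55 (edgeR adjusted p = 2.05e-06), with no filter on low counts −0.40 (adjusted p = 0.000115) and in thinned cells −0.42 (adjusted p = 0.0319). Of all genes 0.0852%, 0.229% and 0.812% were called under these settings. Rps4x, an X-linked small subunit protein, stood at 2302, 1813 and 1507 CPM against 2655, 2299 and 2141 CPM (log2 fold change −0.35, SE 0.10, edgeR adjusted p = 0.761). Rpl39, a small protein lining the exit tunnel and also X-linked, stood at 2149, 1945 and 1302 CPM against 2455, 2541 and 1766 CPM (−0.34, SE 0.10, edgeR adjusted p = 0.83). Rpl22 stood at 696.0, 670.7 and 445.5 CPM against 871.8, 784.5 and 593.2 CPM (−0.32, SE 0.13). All 3 were lower in Cd8a+ cells of each pool.

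Rplp1 and Rps21 were the only members, of the 81 tested, whose classes did not overlap between pools, where 3.62% of all genes were below without overlap. Rplp1 stood at 3234, 3547 and 3362 CPM in Cd8a+ and 3809, 4094 and 3900 CPM in Cd8a- cells, with a log2 fold change of −0.22 (SE 0.08, edgeR unadjusted p = 0.0146, adjusted p = 0.9996). Its levels were nearly the same in the 3 pools within a class, unlike those of most members. Rpl31 had the highest log2 fold change of the core members, 0.14 (SE 0.12), and stood at 1036 against 1053 CPM in WT, 1018 against 870.8 CPM in Jα18-deficient and 924.7 against 800.6 CPM in CD1d-deficient cells. In thinned cells the paralog Rps4l was also called, higher in Cd8a+ cells (2.52, edgeR adjusted p = 0.0141).

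**Figure D4:**
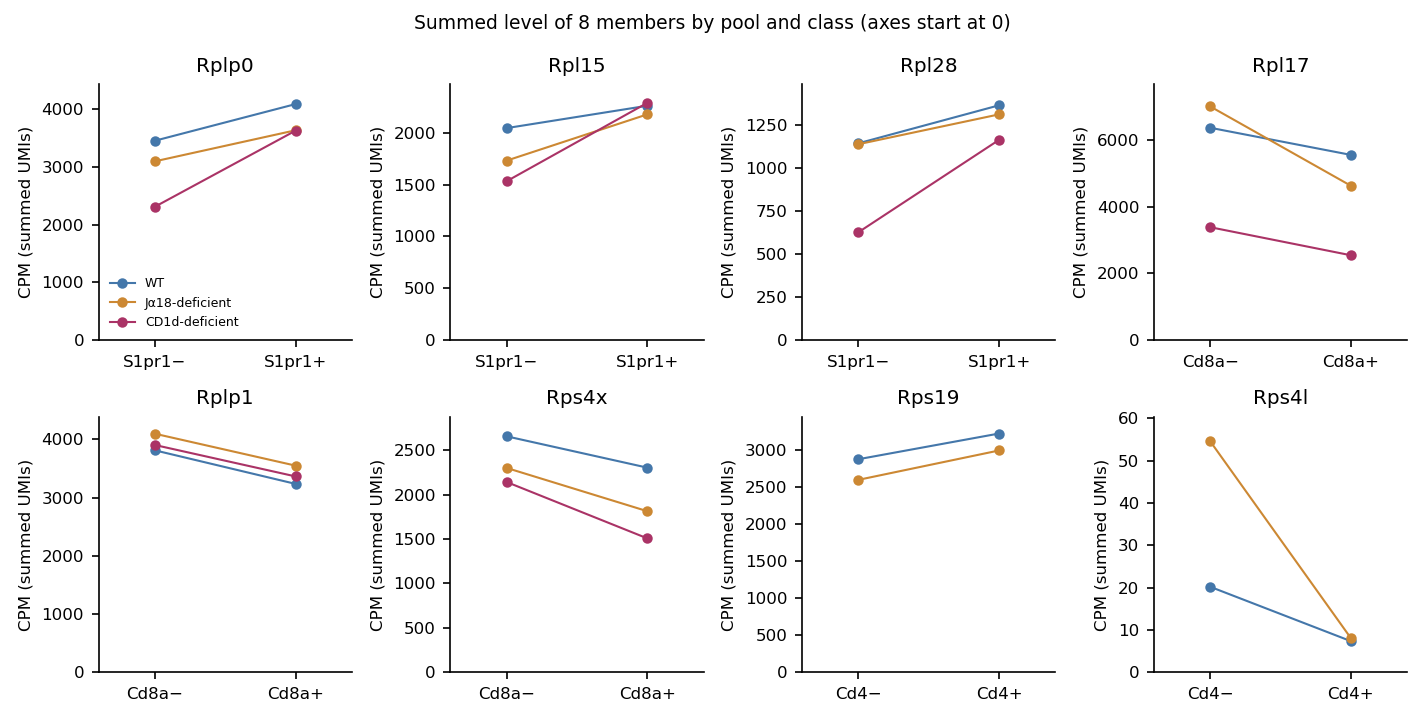
Summed level (y axis, CPM, starting at 0) of 8 members in cells without and with a UMI of S1pr1, Cd8a or Cd4; each line joins the classes of 1 pool, and the CD1d-deficient pool is left out for Cd4, where it had 4 positive cells. Rplp0, Rpl15 and Rpl28 are higher in S1pr1+ cells of all 3 pools, Rpl17, Rplp1 and Rps4x lower in Cd8a+ cells of all 3, and Rps4l is at 54.6 CPM in Cd4- and 8.13 CPM in Cd4+ cells of the Jα18-deficient pool.

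Cd4 could be compared in 2 pools, since the CD1d-deficient pool had only 4 Cd4+ cells, with a share of 17.6%. In WT the share was 19.6% in 214 Cd4+ against 18.1% in 309 Cd4- cells, and in the Jα18-deficient pool it was 16.4% in 163 against 16.5% in 469 cells. The mean difference was 0.623 ± 1.14 points (SD, n = 2 pools, exact two-sided p = 1), with opposite signs in the pools. In thinned cells it was positive in both, 1.04 points in WT and 2.02 in Jα18-deficient cells, and cells with Cd4 alone were above cells with none of the 3 genes by 1.12 and 0.44 points. In the classes made without thinning, the NK cell genes summed to 900.4 and 2183 CPM in Cd4+ cells of the WT and Jα18-deficient pools. They summed to 1837 and 3864 CPM in Cd4- cells. A list of genes of dividing cells summed to 51.1 and 72.7 CPM against 308.2 and 139.6 CPM, and the part of either list in the difference was not tested. edgeR called 0 of 80 members (background 0.103%, 11 of 10630 genes), DESeq2 called 0, and 14 had an unadjusted p under 0.05 in edgeR, 13 of them higher and 1 lower in Cd4+ cells, where 2.85% and 2.98% of all genes were at that p. The count in either direction was 3 with library sizes from genes that are not members and 4 in DESeq2. It was 4 for cells with Cd4 alone against cells with none and 25 in thinned cells. CPM was higher in Cd4+ cells of both pools in 34 core members and lower in both in 1, where 21.6% and 30.2% of all genes were. Cd4+ cells lay above Cd4- cells without overlap in 6 members (Rpl36, Rpl37, Rps12, Rps19, Rps21 and Rps27l) and below in 1 (Rps4l), where 11.4% and 17.9% of all genes did. The log2 fold change was above 0 in 71 of 80 members, against 48.5% of all genes, with a median of 0.10 against −0.02, and in 63 of 80 when the library size was taken from genes that are not members.

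Rps19, which is needed for maturation of the small subunit, stood at 3225 and 2997 CPM in Cd4+ cells of the WT and Jα18-deficient pools and at 2878 and 2600 CPM in Cd4- cells (log2 fold change 0.24, SE 0.08, edgeR adjusted p = 0.677). Rps9 stood at 3561 and 3014 CPM against 3033 and 2718 CPM (0.25, SE 0.08, edgeR adjusted p = 0.649) and Rpl36a at 1438 and 1100 CPM against 1320 and 923.6 CPM (0.24, SE 0.10, edgeR adjusted p = 0.818). Each was higher in Cd4+ cells of both pools, and only Rps19 of the 3 had classes without overlap. Rps19bp1 had the highest log2 fold change of the members in this split, 0.55 (SE 0.28, edgeR adjusted p = 0.894), which was −0.95 in thinned cells. Of the core members Rpl29 and Rps26 had the lowest, both −0.05.

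The paralogs varied more than the core members. They held the lowest fold changes of the S1pr1 split, −1.34 for Rps4l (SE 0.72, edgeR adjusted p = 0.907) and −1.14 for Rpl39l (SE 1.86), while Rpl22l1 was at 0.40 (SE 0.19, edgeR adjusted p = 0.895), within the range of the core members (0.03 to 0.56). Rpl10l, Rpl32l and Rps27rt had 0 UMIs in the 1382 cells, and Rpl3l, the muscle form of Rpl3, had 2. Rpl22l1, which can replace Rpl22 in the ribosome, stood at 721.3 CPM in WT, 447.7 CPM in Jα18-deficient and 416.4 CPM in CD1d-deficient cells, the only paralog that was past 1.5-fold lower than WT in both other pools. In thinned cells it was past 1.5-fold in neither, and in cells with none of the 3 genes only in the CD1d-deficient pool. Rpl36al, which encodes nearly the same protein as Rpl36a, stood at 861.8, 693.3 and 648.4 CPM. Rps27l, a p53 target beside Rps27, stood at 312.1, 289.9 and 328.4 CPM, and Rpl7l1 at 100.2, 115.7 and 99.6 CPM.

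Rps4l, a second copy of Rps4x, ran against the core members between pools. It stood at 13.8 CPM in WT (465 UMIs), 38.7 CPM in Jα18-deficient (2316 UMIs) and 53.9 CPM in CD1d-deficient cells (734 UMIs), 2.79-fold and 3.90-fold above WT, whereas Rps4x stood at 2587, 2001 and 1631 CPM. Its UMIs lay in few cells: 36 WT, 110 Jα18-deficient and 60 CD1d-deficient cells had any, and 5, 8 and 7 cells were enough to hold 50% of them. In Cd4+ cells it stood at 7.39 and 8.13 CPM in the WT and Jα18-deficient pools, against 20.2 and 54.6 CPM in Cd4- cells (log2 fold change −2.05, SE 0.56, edgeR adjusted p = 0.532). RefSeq lists Rps4l as a transcribed pseudogene. Whether reads of Rps4x were counted in it was not tested. Rpl39l, a testis form of Rpl39, had 6 UMIs in WT, 400 in Jα18-deficient and 15 in CD1d-deficient cells, and 3 of the 632 Jα18-deficient cells held 50% of the 400. Rps19bp1 stood at 59.4, 83.6 and 123.2 CPM, so that the CD1d-deficient pool was 2.07-fold above WT. A UMI was found in 141 of the 523 WT, 272 of the 632 Jα18-deficient and 89 of the 227 CD1d-deficient cells. In the CD1d-deficient pool 6 cells held 50% of the 1679 UMIs, and 1 cell held 383. Rps19bp1 stayed past 1.5-fold above WT in that pool in thinned cells. It was not among the members past 1.5-fold higher there in cells with none of the 3 genes.

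Fau encodes a small subunit protein fused to a ubiquitin-like protein, and its symbol falls outside the rule. It stood at 5570, 4494 and 4199 CPM in WT, Jα18-deficient and CD1d-deficient cells, in the same order as the members' sum. No gene of 4 further lists of translation genes was called in any of the 3 splits by edgeR. In the S1pr1 split edgeR called 0 of 33 translation factors, 0 of 8 ribosome-associated genes, 0 of 38 ribosome biogenesis genes and 0 of 78 mitochondrial ribosomal protein genes, where 4, 1, 2 and 1 of them had an unadjusted p under 0.05 in either direction, where 5.44% of all genes did. The medians were 0.28, 0.18, 0.14 and −0.08. Npm1, a nucleolar chaperone of ribosome assembly, stood at a log2 fold change of 0.62 (SE 0.17, edgeR adjusted p = 0.793). In the Cd8a split the medians of these lists were −0.01, −0.07, −0.10 and 0.04, and in the Cd4 split 0.07, 0.10, 0.12 and 0.04, again with 0 called in each by edgeR. Between CD1d-deficient and WT cells the median log2 ratio was −0.15 for translation factors, −0.35 for ribosome-associated genes, −0.27 for biogenesis genes and 0.01 for mitochondrial ribosomal proteins, against −0.48 for the core members.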

How the data were processed

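Single liver NK1.1+CD3e+ cells of 3 genotypes were profiled. Per the labels and methods, the authors trimmed reads with cutadapt 1.15, aligned them to mm9 with TopHat2 2.0.12, removed duplicates by UMI and counted with HTSeq 0.10.0. The deposited values are UMI counts, not normalized, without length correction. The methods give filters of over 500 genes and 10000 to 600000 transcripts per cell, but 353 of the 1735 cells hold fewer than 10000 UMIs; these were left out here. No doublet caller was run on the hand-picked cells, and cell names carry no barcode or library.

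The members, lists and splits were chosen with earlier results of these data known. A sum needed at least 10 cells. Fits used edgeR 4.0.16 (TMM, filterByExpr, pool term) in R 4.3.3, checked on simulated data; DESeq2 1.42.0 was an alternative. P-values set the difference between classes against its spread over pools of different genotype. Tests had been laid out for libraries and were run on pools. Members were named at both ends of each comparison (4 per direction, at least 1000 UMIs), with the stalk genes, Rpsa and all paralogs. Rps12, Rps21, Rpl4, Rpl35, Rps3a1, Rpl13, Rpl36, Rpl37, Fau and Npm1 were named after their values were seen. Values of some genes that the rule or a count takes in are not reported here. Ratios between pools had 0.5 UMI added to each count. Copies were searched with blastn 2.17.0. Python 3.11.15, scipy 1.17.1 and matplotlib 3.10.9 gave the tables and figures. Depth was 33641489 (WT), 59920798 (Jα18-deficient) and 13628142 (CD1d-deficient) UMIs in the cells used, and shares have 95% intervals for counting error only; reads of near-identical copies cannot be told apart.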

Additional observations from a re-analysis of the deposited data

Results flagged for a closer look

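The difference in the members' share of UMIs between Cd4+ and Cd4- cells had opposite signs in the 2 pools that could be compared. It was 1.43 percentage points in WT and −0.18 points in Jα18-deficient cells, and the difference between the pools was not tested. The difference was positive in both pools under 3 other measures, though not in cells from 20000 UMIs up (1.48 and −0.15 points): the medians over cells differed by 1.35 and 0.570 points, the shares in thinned cells by 1.04 and 2.02 points, and those of cells with Cd4 alone against cells with none of the 3 genes by 1.12 and 0.44 points.

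Cells under 10000 UMIs, which entered no comparison, also held members' UMIs. Their share was 18.8% (100 cells, WT), 21.5% (93 cells, Jα18-deficient) and 14.5% (160 cells, CD1d-deficient), so the Jα18-deficient value lay above the 16.5% of the deeper cells of that pool. The rows with -ps in their name, left out of the members, held 17999 UMIs in all 1735 cells, those under 10000 UMIs included. Of these UMIs, Rps15a-ps4 had 9916 and Rpl14-ps1 had 5180.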

How the results depend on the processing

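No paired analysis was possible because the cells carry no replicate number that ties libraries across genotypes; within the splits, the pool was the block. The order of the 3 pools in the members' share was kept under each setting below, but not in the cells under 10000 UMIs, where the Jα18-deficient pool was highest. The shares were 19.4%, 17.4% and 13.6% as medians over cells in WT, Jα18-deficient and CD1d-deficient cells, 19.2%, 18.0% and 14.2% in thinned cells, and 18.6%, 17.5% and 14.3% in cells with none of the 3 genes. They were 16.5% (Jα18-deficient) and 13.7% (CD1d-deficient) over all cells, and 16.4% and 13.6% from 20000 UMIs up. The number of members past 1.5-fold rose from 3 to 8 (TMM factors) and fell to 1 (thinned) for Jα18-deficient over WT. For CD1d-deficient over WT it was 38 with library sizes from genes that are not members and 13 in cells with none of the 3 genes, against 25. Called members went from 0 to 3 in thinned cells for S1pr1 and for Cd8a, and to 1 for Cd8a with no filter on low counts; leaving out a pool in turn gave 0 to 1 for Cd8a and 0 to 0 for S1pr1. The Cd4 difference in share was −0.18 to 1.43 points with 1 pool left out. The cause was not tested for any of these.

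Of 427 values of named members under an alternative, 36 turned sign, mostly in paralogs, and 5 gained a call. In thinned cells they were Rpl36al at −0.021 (S1pr1), Rpl7l1 at −0.085, Rpl31 at −0.086, Rpl36al at 0.023 and Rps27l at 0.018 (Cd8a), and Rpl29 at 0.11, Rps26 at 0.044, Rps19bp1 at −0.95, Rplp2 at 0.16, Rpl7l1 at −0.14 and Rpl37rt at 0.11 (Cd4), all log2 fold changes. In exclusive classes (S1pr1+, Cd8a alone or Cd4 alone, each against cells with none) they were Rps19bp1 at 0.19 and Rpl36al at −0.14 (S1pr1), Rpl7l1 at −0.066 and Rpl22l1 at 0.090 (Cd8a), and Rps26 at 0.073 and Rplp2 at 0.12 (Cd4). DESeq2 gave Rpl37rt 0.0073 (S1pr1), Rpl39l −0.021 (Cd8a) and Rplp2 0.0021 (Cd4). Rpl39l was 0.34 (S1pr1) and −1.0001 (Cd8a) in cells from 20000 UMIs up, and −0.30 (Cd8a) without a pool term. With 1 pool left out, the S1pr1 range was −0.74 to 0.10 for Rpl7l1, −1.02 to 0.13 for Rps19bp1, −0.29 to 0.065 for Rps27l, −0.14 to 0.24 for Rpl36al and −0.13 to 0.049 for Rpl37rt. The Cd8a range was −0.13 to 0.26 for Rpl7l1, −0.19 to 0.77 for Rps19bp1, −0.20 to 0.059 for Rpl22l1, −0.34 to 0.0058 for Rpl36al, −0.43 to 0.032 for Rpl37rt, −1.26 to 0.93 for Rpl39l and −0.25 to 0.16 for Rps27l.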
